A study of Mus musculus with 40 samples.

Results

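The axon guidance ligands and receptors described here are 65 mouse genes of the semaphorin, plexin, neuropilin, Slit, Robo, netrin, ephrin and Eph families. They were chosen by gene symbol among the protein-coding genes with at least 10 counts over 40 RNA sequencing libraries, *Sema7a* left out. All 65 family genes that the annotation shares with the count table passed that minimum, down to *Epha10* with 19 counts and *Epha6* with 20 counts, out of 25210 genes tested, of which 16762 were protein-coding. They comprise 7 secreted and 12 membrane-bound semaphorins, 9 plexins, 2 neuropilins, 3 Slits, 4 Robo receptors, 6 netrins, 5 ephrin-A and 3 ephrin-B ligands, and 9 EphA and 5 EphB receptors.

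The study asked how the kinase TAK1 shapes the response of cardiac fibroblasts to growth factors and cytokines, and sequenced their RNA 24 h after stimulation. All cells were isolated from hearts of adult TAK1fl/fl mice on a C57BL/6J background, in which LoxP sites flank exon 2 of *Map3k7*, the TAK1 gene, and Cre recombination leaves a truncated product. Fibroblasts at passage 1 were transduced with an adenovirus carrying LacZ (control) or iCre, both under the CMV promoter, serum-starved, and then left without ligand (CTRL) or given TNFα or TGFβ at 10 ng/ml, IL-1β at 15 ng/ml or bFGF at 20 ng/ml. The 10 groups had 4 libraries each, numbered replicate 1 to 4. Every group, CTRL included, thus carried the floxed alleles and a virus, and had been cultured in serum with bFGF before starvation. The study describes the libraries of a group as biological replicates from male animals. The labels do not say which animals or isolations a replicate number stands for, and p-values measure the spread between these libraries.

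Axon guidance molecules steer growing nerve fibres and also act on migrating cells, vessels and mesenchyme. Semaphorins signal through plexins, with neuropilins as co-receptors for most secreted members. Slits bind Robo receptors, netrins bind DCC, neogenin and UNC5 receptors, and membrane-held ephrins bind Eph receptor tyrosine kinases on neighbouring cells, with signals running into both cells. The heart uses several of them: sympathetic innervation is patterned by *Sema3a*, and outflow tract development depends on *Sema3c*, *Nrp1* and *Plxnd1*.

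Promoter windows of 4 members are printed. *Slit2*, *Ntn4* and *Robo1* are the members raised by TGFβ whose windows hold CAGACA. *Epha2* is 1 of 3 members raised by bFGF whose windows hold GGAATG. Each window runs from 250 bases before to 50 bases after a RefSeq start site (GRCm38.p6), 5′ to 3′ on the + strand. Capitals mark the 6-base CAGACA box, or its reverse complement TGTCTG, in the first 3 windows, and CATTCC, the reverse complement of the TEAD motif GGAATG, in the *Epha2* window. The *Ntn4* and *Robo1* start sites lie inside the GENCODE M21 genes, and the *Slit2* and *Epha2* sites close to their gene starts.
Slit2 (chr5:47982905-47983204): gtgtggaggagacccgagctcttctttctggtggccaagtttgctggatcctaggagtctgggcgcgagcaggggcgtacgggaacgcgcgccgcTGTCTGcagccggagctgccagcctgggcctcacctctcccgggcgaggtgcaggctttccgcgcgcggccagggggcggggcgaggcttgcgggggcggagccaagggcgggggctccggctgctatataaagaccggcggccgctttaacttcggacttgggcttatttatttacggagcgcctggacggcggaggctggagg
Ntn4 (chr10:93640799-93641098): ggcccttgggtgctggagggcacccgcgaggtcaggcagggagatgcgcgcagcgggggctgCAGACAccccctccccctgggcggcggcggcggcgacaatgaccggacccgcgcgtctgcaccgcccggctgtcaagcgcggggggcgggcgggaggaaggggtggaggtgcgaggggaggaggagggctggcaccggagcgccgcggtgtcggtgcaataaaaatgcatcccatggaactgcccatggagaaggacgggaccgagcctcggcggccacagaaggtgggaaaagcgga
Robo1 (chr16:72662899-72663198): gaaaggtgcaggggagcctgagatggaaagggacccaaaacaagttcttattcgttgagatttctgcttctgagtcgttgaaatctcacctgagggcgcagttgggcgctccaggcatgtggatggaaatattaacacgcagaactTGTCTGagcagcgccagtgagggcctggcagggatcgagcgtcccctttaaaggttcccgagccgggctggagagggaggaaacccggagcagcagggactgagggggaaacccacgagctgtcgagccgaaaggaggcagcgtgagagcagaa
Epha2 (chr4:141300971-141301270): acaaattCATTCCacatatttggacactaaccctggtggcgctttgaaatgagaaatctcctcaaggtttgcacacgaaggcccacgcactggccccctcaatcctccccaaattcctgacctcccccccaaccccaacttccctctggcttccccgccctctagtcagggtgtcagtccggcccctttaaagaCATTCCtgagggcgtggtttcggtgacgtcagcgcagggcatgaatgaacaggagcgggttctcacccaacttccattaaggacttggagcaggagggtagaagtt

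Libraries held 25360947 to 66160732 counts (median 36183962). *Map3k7* was lower in iCre than in LacZ libraries of the same treatment with no overlap, although most of the counted gene lies outside the deleted exon: in CTRL it ran from 144 to 159 CPM (counts scaled to library size) with LacZ and from 123 to 133 CPM with iCre, and with TNFα from 209 to 251 and from 126 to 155 CPM. The adjusted p for *Map3k7* was 0.137 in CTRL (0.00393 with replicate number as a block), 0.351 with bFGF (0.000409 with the block) and at most 0.00088 with TGFβ, IL-1β and TNFα. Summed levels of 8 fibroblast markers were 10070 to 66861 CPM, against 10.1 to 39.1 CPM for 8 endothelial, 16.3 to 156 CPM for 5 leukocyte, 143 to 1988 CPM for 6 pericyte, 23.1 to 316 CPM for 6 neural and 0.299 to 110 CPM for 2 cardiomyocyte markers.

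Replicate 2 stood apart. Among the 50 members with a mean of at least 1 CPM over the 40 libraries, 16% were the highest or the lowest in replicate 2 in all 10 groups, against 9.69% of all 13090 genes at that level. *Nrp2*, *Efnb3*, *Slit3*, *Sema4g*, *Ephb2* and *Sema5a* were highest there, *Nrp2* by a median of 2.20 on the log2 scale over the other 3 libraries. *Sema3e* and *Ntn4* were lowest there, by medians of -1.21 and -0.97. Marker lists moved with it: the summed pericyte median was 340 CPM in replicate 2 and 773 to 996 CPM in the others, the neural median 30.5 against 70.9 to 102 CPM, the cardiomyocyte median 1.53 against 4.07 to 14.5 CPM and the leukocyte median 34.4 against 39.0 to 96.2 CPM. The endothelial median was highest there, at 18.0 against 13.3 to 14.8 CPM. Their part in the results was not tested. Results that rest on replicate 2 are given with and without it.

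Axon guidance genes were widely expressed in untreated LacZ fibroblasts. Over all libraries, 33 members averaged at least 10 CPM and 10 at least 100 CPM, while 15 averaged under 1 CPM, among them *Robo3*, *Robo4*, *Slit1*, *Sema3g*, *Epha5* and *Ephb1*. Per kilobase of exon, the plexin *Plxnb2* was highest in LacZ CTRL at 78.4 ± 4.97 CPM per kb (SD, n = 4), with all 4 of its libraries above the next gene. *Plxna1*, a signalling receptor for class 3 semaphorins, followed at 31.1 ± 1.08 (29.7 to 32.2), and *Slit3* at 28 ± 10.0 (20.8 to 42.2), which overlapped it. *Ephb4*, a receptor for ephrin-B2, was at 20.8 ± 1.36 and the secreted ligand *Sema3c* at 18.8 ± 0.992, with touching ranges. *Nrp1*, at 14.9 ± 1.83 CPM per kb, lay below *Sema3c* with no overlap.

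**Figure D1:**
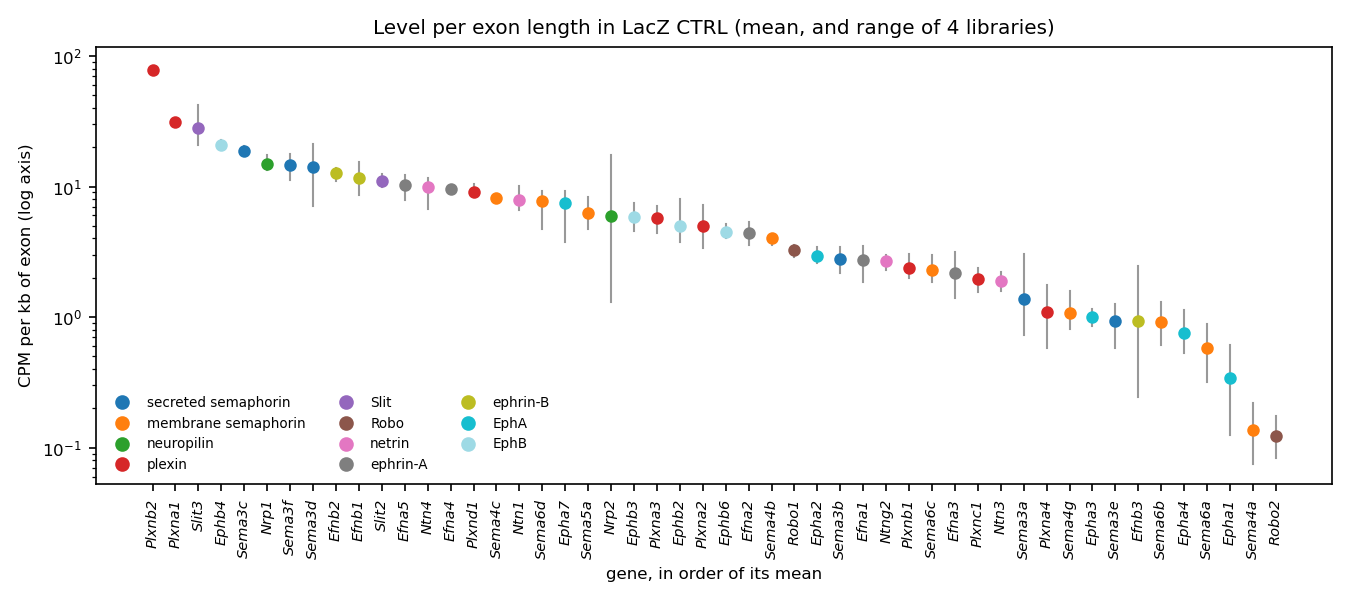
Level of each member in LacZ CTRL fibroblasts in CPM per kilobase of exon, by gene family; points are means and lines run from the lowest to the highest of 4 libraries. *Plxnb2* (78.4) stands above *Plxna1* (31.1), *Slit3* (28), *Ephb4* (20.8) and *Sema3c* (18.8).

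In LacZ fibroblasts each ligand moved part of the set, in both directions. By edgeR's quasi-likelihood test, with p adjusted over all 25210 genes and a threshold of 0.05 as everywhere here, bFGF raised 6 members and lowered 9, which is 23.1% against 11.6% of all genes (7% raised, 4.64% lowered). TGFβ raised 11 and lowered 21, or 49.2% against 36.9% (17.5% raised, 19.3% lowered). IL-1β raised 8 and lowered 12, or 30.8% against 20.7% (11.1% raised, 9.55% lowered). TNFα raised 10 and lowered 12, or 33.8% against 21.3% (10.9% raised, 10.4% lowered). The members' median log2 fold changes were -0.24, -0.58, -0.34 and -0.19, and those of all genes -0.03, -0.17, -0.10 and -0.08. The shares lay closer together where expression averaged 1 CPM or more: 28% of members against 20.2% of genes passed with bFGF, 58% against 57.8% with TGFβ, 34% against 34.1% with IL-1β and 42% against 35.1% with TNFα. At that level, a fit with the replicate number as a block set them further apart. It gave 68% against 46.1% with bFGF, 74% against 67.9% with TGFβ, 80% against 55.8% with IL-1β and 76% against 59.6% with TNFα. The 4 comparisons share the LacZ CTRL libraries.

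The counts varied with the fit. With the replicate number as a block, 39 members passed with TNFα (35.5% of all genes), 43 with IL-1β (33.5%) and 37 with bFGF (27.3%). Without replicate 1, 2, 3 or 4, bFGF left 6, 28, 2 or 3 members, beside 4.84%, 18.2%, 1.32% and 2.48% of all genes. Over the same omissions TGFβ left 22 to 37 members (25.9% to 37.1% of all genes), IL-1β 11 to 33 (9.22% to 23.4%) and TNFα 14 to 28 (10.5% to 23.5%). Members and all genes alike gave the most calls when replicate 2 was out.

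**Figure D2:**
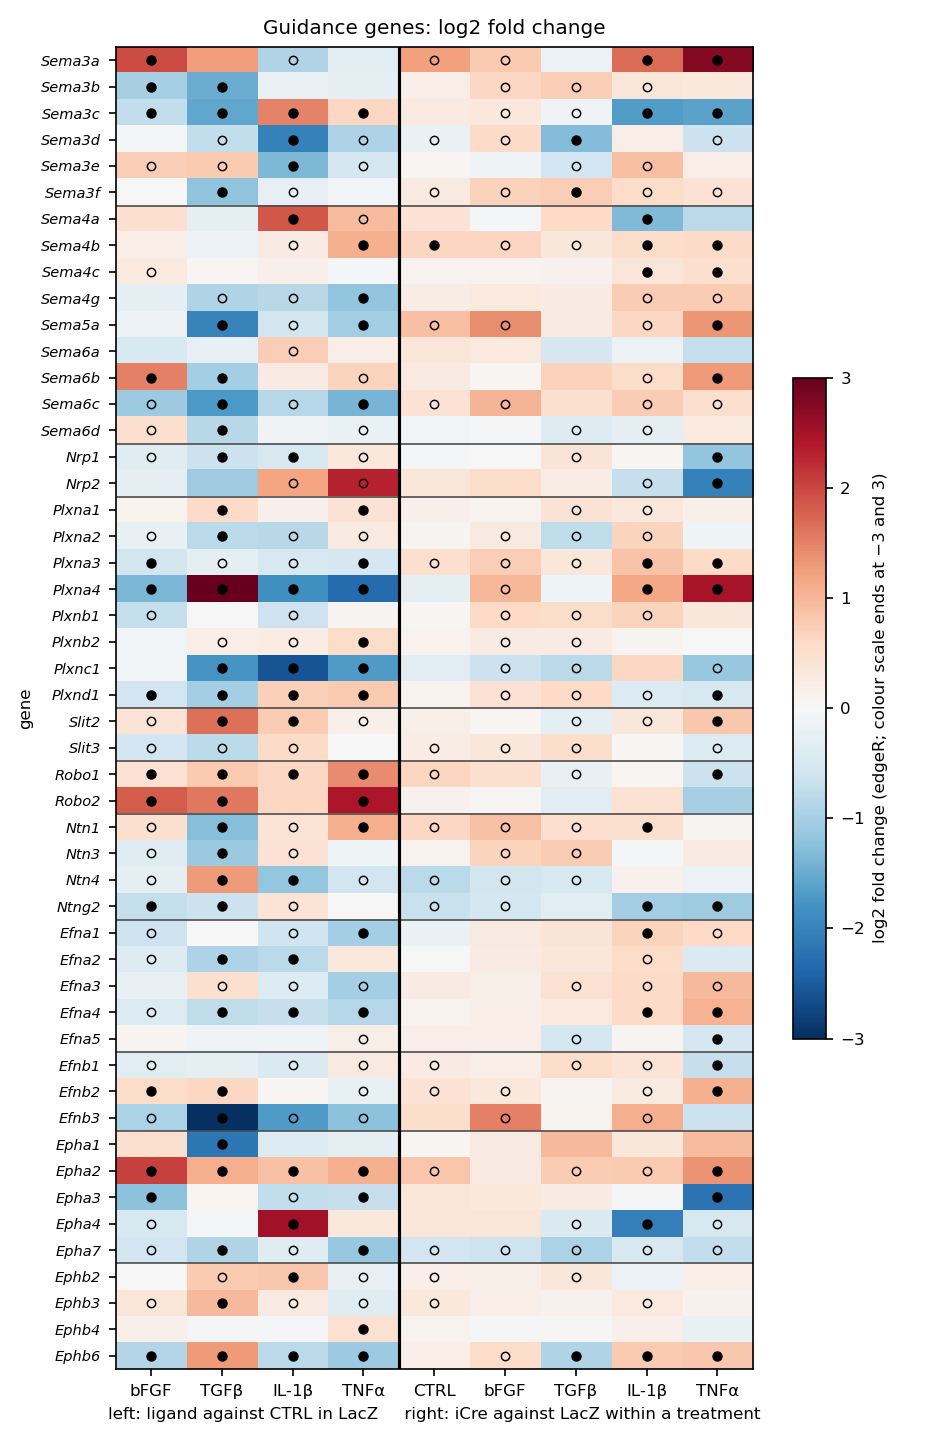
Log2 fold changes of the 50 members with a mean of at least 1 CPM, by family (rows): the first 4 columns set each ligand against CTRL in LacZ fibroblasts, the last 5 set iCre against LacZ within each treatment. Colour runs from -3 to 3, filled dots mark members past the threshold and open circles those past it only with the replicate block; *Epha2* and *Robo1* have filled dots in all 4 ligand columns, of which 3 were lost in a single fit over all libraries (*Robo1* with bFGF and IL-1β, *Epha2* with IL-1β).

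Without the block 6 members passed with every ligand and 19 with none, and with it 18 and 8. *Epha2*, an ephrin-A receptor, and *Robo1*, a Slit receptor, passed as raised with all 4. In a single fit over all libraries *Robo1* missed the threshold with bFGF and IL-1β (adjusted p = 0.237 and 0.0818) and *Epha2* with IL-1β (adjusted p = 0.0591), and *Robo1* with bFGF did so without replicate 1, 3 or 4 (adjusted p = 0.0567 to 0.11). The kinase-impaired receptor *Ephb6* and the semaphorin receptor *Plxna4* were raised by TGFβ and lowered by bFGF, IL-1β and TNFα. *Sema3c* and *Plxnd1* split the other way: bFGF and TGFβ lowered both, and IL-1β and TNFα raised both. Some of these calls were lost with a replicate number left out, as given with each gene.

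Among the semaphorins, TGFβ raised 0 of 19 and lowered 7 (*Sema3b*, *Sema3c*, *Sema3f*, *Sema5a*, *Sema6b*, *Sema6c* and *Sema6d*), with a median log2 fold change of -0.74, beside 17.5% of all genes raised, 19.3% lowered and a median of -0.17. By edgeR's test at an unadjusted p under 0.05, and by DESeq2, the count raised was also 0. These counts are for fits without the replicate block. With it *Sema3e* passed with all 4 ligands, and its mean CPM with TGFβ was 1.7 times that of CTRL. *Sema5a*, a transmembrane semaphorin, measured 128, 156, 92.6 and 88.8 CPM in LacZ CTRL replicates 1 to 4 and 29.7, 39.3, 22.8 and 22.7 CPM with TGFβ. The groups did not overlap, and the log2 fold change was -2.0 ± 0.22 (SE; adjusted p = 6.85e-05). The transmembrane *Sema6c* fell with TGFβ by 1.73 on the log2 scale (adjusted p = 0.000535) and with TNFα by 1.39 (adjusted p = 0.00188).

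*Sema3c*, a secreted attractant of cardiac neural crest, moved in both directions. LacZ CTRL libraries held 145, 131, 132 and 130 CPM, bFGF libraries 85.6, 71.2, 83.4 and 77.5 CPM. IL-1β took it to 467, 272, 357 and 408 CPM and TNFα to 210, 219, 203 and 189 CPM, all above every CTRL library. The log2 fold changes were -0.74 ± 0.09 with bFGF (adjusted p = 0.00156), 1.49 ± 0.15 with IL-1β (adjusted p = 0.000161) and 0.61 ± 0.08 with TNFα (adjusted p = 0.000476). With TGFβ it read 15.8, 26.8 and 25.5 CPM in replicates 1, 3 and 4 but 111 CPM in replicate 2. That change was -1.57 ± 0.51 (adjusted p = 0.0344), or -2.58 (adjusted p = 7.54e-07) without replicate 2, and missed the threshold without replicate 1, 3 or 4 (adjusted p from 0.122 to 0.139). In a single fit over all 40 libraries the bFGF call was lost (adjusted p = 0.321).

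*Sema3a*, the classical collapsing ligand of sensory and sympathetic axons (chr5, 13125414 to 13602565, + strand), was raised by bFGF. LacZ CTRL libraries held 11.2, 42.2, 12.2 and 10.1 CPM in replicates 1 to 4, and bFGF libraries 43.0, 140, 49.0 and 54.5 CPM. Each bFGF library lay above every CTRL library, with replicate 2 the highest on both sides, and the log2 fold change was 1.95 ± 0.54 (adjusted p = 0.0423). Without replicate 2 it was 2.12 (adjusted p = 5.40e-06); without replicate 1, 3 or 4 the adjusted p was 0.115 to 0.182, and in a single fit over all libraries 0.0593. With TGFβ the replicate 2 library held 134 CPM and the others 9.36 to 20.0 CPM, and the change of 1.25 missed the threshold (adjusted p = 0.276; 0.32, adjusted p = 0.354, without replicate 2). IL-1β libraries held 8.01, 19.2, 7.01 and 5.53 CPM, with a log2 fold change of -0.90 that passed only with the block (-0.82, adjusted p = 1.8e-07) or without replicate 2 (-0.71, adjusted p = 0.00793). TNFα libraries (11.4 to 22.3 CPM) overlapped CTRL (-0.33, adjusted p = 0.656), and without replicate 2 the sign turned (0.16, adjusted p = 0.413).

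The other named semaphorins follow by ligand. IL-1β raised *Sema4a* from 0.402, 0.769, 0.568 and 1.19 CPM to 2.91, 1.57, 2.63 and 3.44 CPM, with no overlap (log2 fold change 1.87 ± 0.37, adjusted p = 0.00581). It lowered *Sema3d* from 183, 60.7, 121 and 120 CPM to 36.5, 27.0, 30.3 and 24.8 CPM (-2.03 ± 0.29, adjusted p = 0.001). *Sema3e*, a ligand of *Plxnd1*, fell from 5.42 to 11.7 CPM to 1.76 to 5.05 CPM (-1.34 ± 0.33, adjusted p = 0.017), again with no overlap. TNFα raised *Sema4b*, from 20.1 to 24.6 CPM to 44.1 to 51.2 CPM (1.07 ± 0.08, adjusted p = 2.98e-05), and lowered *Sema4g* (-1.18 ± 0.35, adjusted p = 0.0387). bFGF raised *Sema6b* (1.5 ± 0.29, adjusted p = 0.0109) and lowered *Sema3b* (-1.0 ± 0.24, adjusted p = 0.0242). Some of these calls were lost with a replicate number left out. *Sema4a* was at adjusted p = 0.0562 without replicate 3, and *Sema3e* at 0.0649 and 0.0942 without replicate 1 and 4. *Sema4g* ran from 0.0996 to 0.167 and *Sema3b* from 0.0566 to 0.148 without replicate 1, 3 or 4, and *Sema6b* was at 0.104 and 0.0655 without replicate 3 and 4. *Sema4g* also missed the threshold in a single fit over all libraries (adjusted p = 0.0957).

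**Figure D3:**
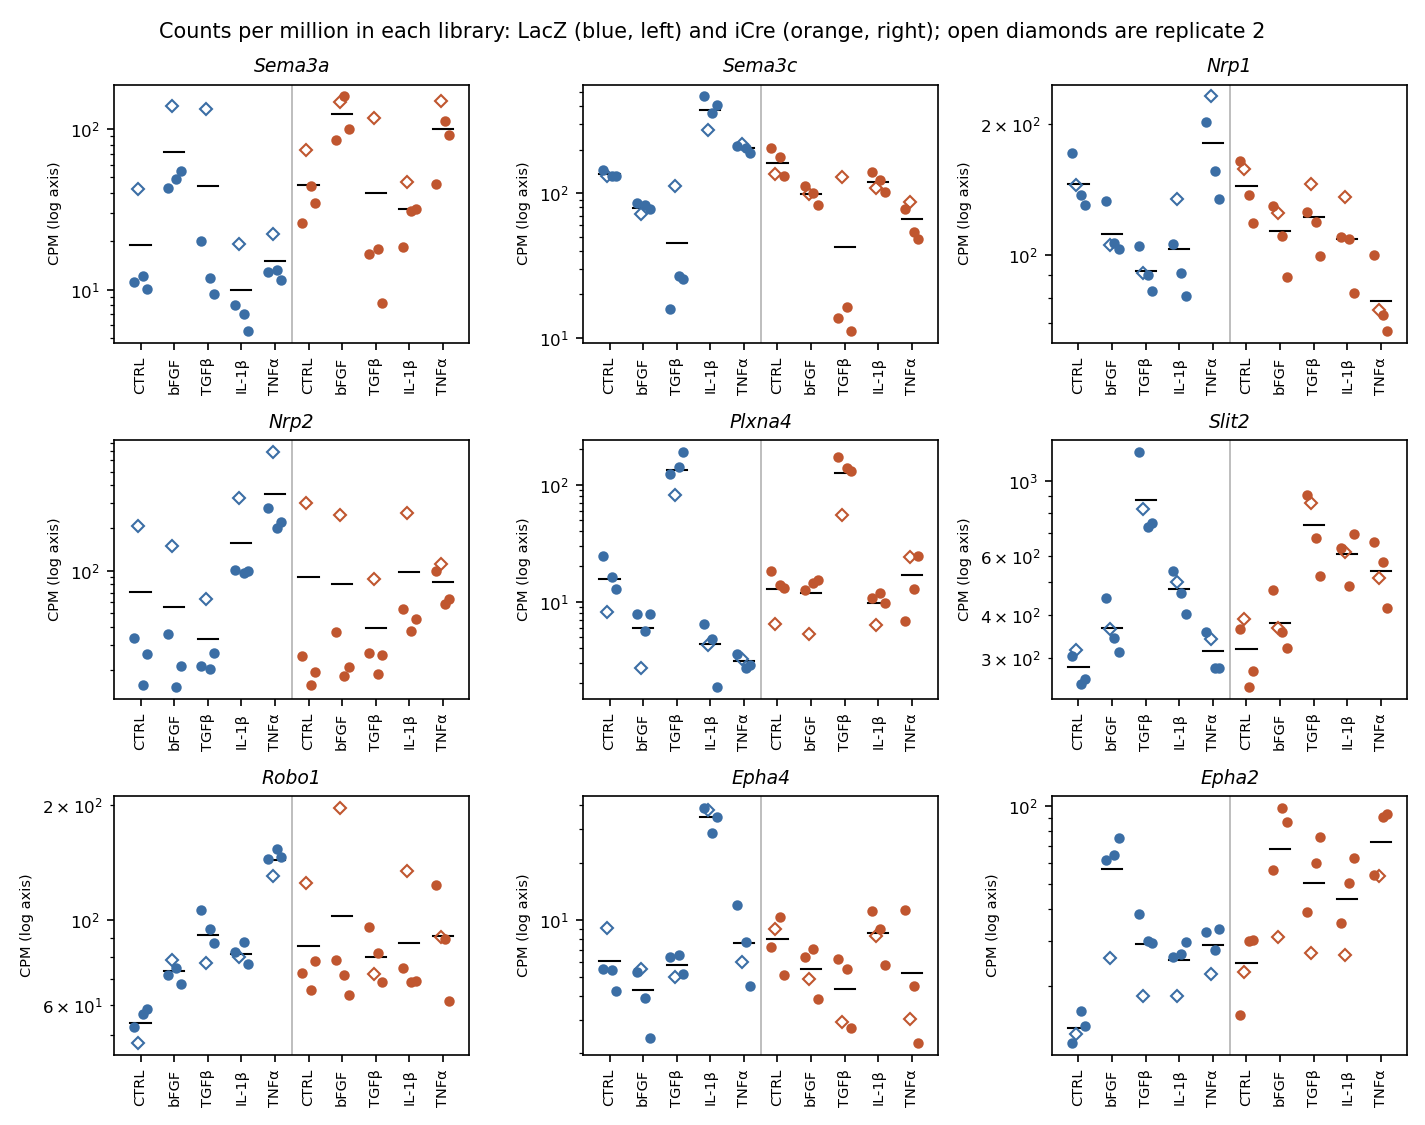
CPM values, on a log axis, of 9 members in each of the 40 libraries, LacZ in blue and iCre in orange within each treatment; open diamonds are replicate 2 and bars are means of 4. *Epha4* and *Sema3c* rise with IL-1β in LacZ cells to 28.6 or more and 272 or more CPM, above every IL-1β library of iCre cells.

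The semaphorin receptors moved in part against each other. *Plxna4*, which relays *Sema3a* with a neuropilin and can bind class 6 semaphorins directly, held 24.7, 8.19, 16.2 and 12.9 CPM in LacZ CTRL and 123, 81.0, 141 and 189 CPM with TGFβ. The lowest TGFβ library lay above the highest CTRL library, and the log2 fold change was 3.12 ± 0.35 (adjusted p = 7.35e-05). With TNFα it held 3.56, 3.25, 2.71 and 2.88 CPM, below every CTRL library (-2.32 ± 0.31, adjusted p = 0.000669). IL-1β libraries ran from 1.87 to 6.39 CPM and bFGF libraries from 2.72 to 7.80 CPM, also below every CTRL library (-1.84 ± 0.40, adjusted p = 0.0089, and -1.36 ± 0.38, adjusted p = 0.0469). The bFGF call was lost without replicate 1, 3 or 4 (adjusted p = 0.131 to 0.235) and the IL-1β call without replicate 3 (adjusted p = 0.0651).

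*Plxnd1*, the receptor of *Sema3e* that also takes part in *Sema3c* signalling, held 60.7 to 76.4 CPM in LacZ CTRL. It ran from 23.1 to 37.0 CPM with TGFβ (-1.03 ± 0.15, adjusted p = 0.000375) and from 37.1 to 47.2 CPM with bFGF (-0.57 ± 0.11, adjusted p = 0.0109, or 0.0534 to 0.0774 without replicate 1, 3 or 4). It ran from 100 to 120 CPM with IL-1β (0.71 ± 0.10, adjusted p = 0.00104) and from 104 to 128 CPM with TNFα (0.78 ± 0.10, adjusted p = 0.000545). None of these 4 groups overlapped CTRL. *Plxnc1*, a receptor for *Sema7a*, went from 13 to 19.9 CPM to 2.28 to 3.34 CPM with IL-1β (-2.59 ± 0.17, adjusted p = 1.09e-05) and to 3.45 to 6.71 CPM with TNFα (-1.70 ± 0.21, adjusted p = 0.000417, or 0.053 in a single fit over all libraries). With TGFβ its change was -1.76 ± 0.45 (adjusted p = 0.0113), with replicate 2 at 10.4 CPM and the others at 1.68 to 3.52 CPM. Without replicate 2 it was -2.54 (adjusted p = 1.55e-05); without replicate 3 or 4 the adjusted p was 0.0536 and 0.0697.

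*Plxna1* (chr6, 89316314 to 89362620, - strand) held 292, 286, 269 and 279 CPM in LacZ CTRL and 489, 425, 371 and 375 CPM with TGFβ. It rose by 0.58 ± 0.11 on the log2 scale (adjusted p = 0.0022) and with TNFα by 0.44 ± 0.08 (350 to 417 CPM, adjusted p = 0.00367, or 0.0511 without replicate 3). Its changes with bFGF, 0.10 (adjusted p = 0.665), and with IL-1β, 0.15 (adjusted p = 0.287), missed the threshold. Of its exon bases 10.7% lie opposite another annotated gene, and whether counting used strand is not stated in the sources used here.

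*Nrp1* (chr8, 128358604 to 128503363, + strand), the ligand-binding partner of plexins for *Sema3a*, held 171, 145, 137 and 130 CPM in LacZ CTRL. TGFβ lowered it to 105, 91.2, 89.9 and 82.8 CPM with no overlap (-0.64 ± 0.11, adjusted p = 0.00132). IL-1β libraries (106, 135, 91.2 and 80.8 CPM) overlapped CTRL through replicate 2, with a change of -0.49 ± 0.15 (adjusted p = 0.0495); it was -0.66 (adjusted p = 0.00405) without replicate 2, and the adjusted p was 0.152 to 0.196 without replicate 1, 3 or 4 and 0.0515 with RLE scaling. With bFGF the change was -0.36 (adjusted p = 0.0849, or 0.000815 with the block) and with TNFα 0.31 (adjusted p = 0.227, or 0.00929 with the block). *Nrp2*, its homologue for *Sema3c* and *Sema3f*, showed the widest gap between replicates: LacZ CTRL held 33.6, 206, 15.5 and 25.9 CPM, IL-1β 102, 325, 96.8 and 98.6 CPM and TNFα 275, 685, 200 and 220 CPM. Of CTRL, IL-1β and TNFα, within each replicate number TNFα was highest and CTRL lowest. The changes of 1.18 with IL-1β (adjusted p = 0.313) and 2.32 with TNFα (adjusted p = 0.066) passed with the block (1.70, adjusted p = 4.78e-11, and 2.88, adjusted p = 1.04e-09) and without replicate 2 (1.99, adjusted p = 7.6e-05, and 3.21, adjusted p = 1.43e-05).

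The 3 Slits and 4 Robo receptors gave 9 calls higher over the 4 ligands in LacZ fibroblasts by edgeR's test, or 32.1% of their 28 tests against 11.6% of the tests of all genes. They gave 0 lower against 11% of all, with 0 lower also at an unadjusted p under 0.05 and by DESeq2. These counts are for fits without the replicate block, and *Slit3* below differs with it. The 4 comparisons share the CTRL libraries. *Slit2*, a secreted repellent, held 303, 316, 250 and 260 CPM in CTRL and 1212, 821, 730 and 747 CPM with TGFβ. Every TGFβ library exceeded every CTRL library (1.66 ± 0.18, adjusted p = 5.51e-05), as did the IL-1β libraries at 404 to 539 CPM (0.77 ± 0.12, adjusted p = 0.00141). Its changes of 0.40 with bFGF (adjusted p = 0.0846) and 0.16 with TNFα (adjusted p = 0.381) missed the threshold. With the replicate block *Slit2* passed with all 4 ligands. *Slit3* spread from 126 to 256 CPM in CTRL, with replicate 2 the highest, and passed with no ligand without the block and with 3 with it. Relative to CTRL its mean CPM was 0.563 (TGFβ), 0.662 (bFGF), 1.01 (TNFα) and 1.48 (IL-1β). Its 3 block calls therefore include a ligand whose mean lay below CTRL. *Robo1* held 47.7 to 58.5 CPM in CTRL and 130 to 154 CPM with TNFα (1.41 ± 0.09, adjusted p = 1.07e-05). It ran from 77.1 to 106 CPM with TGFβ (0.78 ± 0.12, adjusted p = 0.000595), from 76.8 to 87.4 CPM with IL-1β (0.61 ± 0.09, adjusted p = 0.00128) and from 68.2 to 78.8 CPM with bFGF (0.46 ± 0.10, adjusted p = 0.0145), all above CTRL. The calls with bFGF and IL-1β were lost in a single fit over all libraries (adjusted p = 0.237 and 0.0818), and with bFGF also without replicate 1, 3 or 4. *Robo2*, another Slit receptor at a low level, went from 1.74, 2.94, 2.22 and 1.42 CPM to 5.05, 24.0, 7.90 and 7.73 CPM with TNFα (2.42 ± 0.47, adjusted p = 0.00538). It rose too with bFGF (1.81 ± 0.39, adjusted p = 0.0159, or 0.0669 to 0.133 without replicate 1, 3 or 4) and TGFβ (1.58 ± 0.34, adjusted p = 0.00449).

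The netrins moved gene by gene. *Ntn1*, the founding secreted netrin, held 63.1, 49.5, 41.3 and 45 CPM in LacZ CTRL, 126, 74.1, 109 and 111 CPM with TNFα and 21.5, 14.7, 21.4 and 24.1 CPM with TGFβ. The TNFα libraries lay above and the TGFβ libraries below all of CTRL (1.08 ± 0.18, adjusted p = 0.00215, and -1.27 ± 0.17, adjusted p = 0.000238). *Ntn4*, which binds laminin in basement membranes, held 43.8, 25.2, 41.3 and 38.3 CPM in CTRL and 135, 38.4, 94.7 and 84.8 CPM with TGFβ; replicate 2 was lowest on both sides and overlapped the other CTRL libraries (1.27 ± 0.33, adjusted p = 0.0119, or 0.0546 and 0.0543 without replicate 3 and 4). IL-1β lowered it to 12.5 to 19.5 CPM (-1.17 ± 0.20, adjusted p = 0.00272). *Ntng2*, a membrane-anchored netrin-G, fell with bFGF (-0.71 ± 0.19, adjusted p = 0.0419). That call was lost without replicate 1, 3 or 4 (adjusted p = 0.073 to 0.211), with a correction for GC content (adjusted p = 0.0584) and in a single fit over all libraries (adjusted p = 0.147).

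Among Eph receptors, *Epha2* held 12.1, 13, 16 and 14 CPM in LacZ CTRL and 61.7, 25.7, 64.8 and 75.1 CPM with bFGF (2.06 ± 0.28, adjusted p = 0.00239). The lowest library of every other ligand, between 18.3 and 22.3 CPM, also lay above all of CTRL: the log2 fold changes were 1.09 ± 0.20 with TGFβ (adjusted p = 0.00181), 0.88 ± 0.15 with IL-1β (adjusted p = 0.00295, or 0.0591 in a single fit over all libraries) and 1.07 ± 0.14 with TNFα (adjusted p = 0.00073). *Epha4*, which binds ephrins of both classes, was raised by IL-1β from 5.51, 9.13, 5.50 and 4.24 CPM to 38.6, 37.8, 28.6 and 34.7 CPM (2.53 ± 0.21, adjusted p = 4.19e-05). *Ephb6* held 15.3 to 19.6 CPM in CTRL, 25.5 to 45.8 CPM with TGFβ (1.27 ± 0.18, adjusted p = 0.000343) and 6.25 to 9.23 CPM with TNFα (-1.09 ± 0.14, adjusted p = 0.000501). It fell with bFGF by 0.87 (adjusted p = 0.00374) and with IL-1β by 0.82 (adjusted p = 0.00661), both lost without replicate 3 (adjusted p = 0.0524 and 0.0637). *Epha3* fell with bFGF (-1.22 ± 0.22, adjusted p = 0.00758), *Epha7* with TNFα (-1.14 ± 0.26, adjusted p = 0.011) and *Epha1*, at 0.491 to 2.42 CPM in CTRL, with TGFβ (-2.16 ± 0.48, adjusted p = 0.00518). *Epha3* missed the threshold without replicate 3 and 4 (adjusted p = 0.0882 and 0.0583), as did *Epha7* (adjusted p = 0.0759 and 0.089). *Ephb2* rose with IL-1β by 0.82 ± 0.25 (adjusted p = 0.04), a call lost without replicate 1, 3 or 4 (adjusted p = 0.104 to 0.17) and in a single fit over all libraries (adjusted p = 0.0731).

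Of the ephrins, *Efnb2*, the partner of *Ephb4*, rose with bFGF from 75.0 to 95.7 CPM to 114 to 136 CPM (0.56 ± 0.11, adjusted p = 0.01, or 0.103 and 0.0873 without replicate 3 and 4). *Efnb3* held 0.781, 7.77, 1.65 and 1.57 CPM in CTRL and 0.0828, 0.541, 0.294 and 0.152 CPM with TGFβ, down to 3 counts in a library. Its groups did not overlap (-3.37 ± 0.79, adjusted p = 0.00667). *Efna4* went from 13.9 to 16.5 CPM in CTRL to 7.54 to 9.40 CPM with TNFα (-0.86, adjusted p = 0.000558). Over the 4 ligands, which share the CTRL libraries, the 5 ephrin-A genes gave 6 calls lower by edgeR's test, or 30% of their 20 tests against 11% of the tests of all genes, and 0 higher against 11.6%. At an unadjusted p under 0.05 they gave 0 higher, and DESeq2 gave 0 higher. These counts are for fits without the replicate block. With it *Efna2* and *Efna3* each passed with 3 ligands. The mean of *Efna2* was 1.24 times that of CTRL under TNFα, and that of *Efna3* 1.38 times under TGFβ. Both means lay below CTRL for the other ligands. Which ligands passed is not given here, so block calls in the higher direction were not counted.

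Of the 12 members named by rule in each comparison with a ligand, 2 kept their direction and their call with each replicate number left out for bFGF (*Epha2* and *Sema3c*), 9 for TGFβ, 7 for IL-1β and 10 for TNFα. Several marker lists moved with these results. Of 6 pericyte markers, IL-1β lowered 4, TNFα 3 and bFGF 2, while TGFβ lowered 3 and raised 1. Their sum nonetheless ran from 744 to 1276 CPM with TGFβ, above the 194 to 735 CPM of CTRL, while the sums with IL-1β (325 to 859 CPM), TNFα (143 to 501 CPM) and bFGF (182 to 668 CPM) overlapped CTRL. The fibroblast list summed to 27611 to 43314 CPM in CTRL, to 19511 to 26440 CPM with bFGF (1 of 8 markers higher, 2 lower) and to 51540 to 60845 CPM with TGFβ (*Col1a1* and *Col1a2* higher, 3 lower), neither overlapping CTRL. The endothelial list summed to 27.2 to 28.6 CPM in CTRL and lower, with no overlap, with bFGF (13.6 to 17.7 CPM), IL-1β (10.1 to 12.4 CPM) and TNFα (10.3 to 18.0 CPM), with *Tek* the 1 of 8 called in each. *Tnnt2* of the cardiomyocyte list was lower with TGFβ, IL-1β and TNFα. The neural list summed to 135 to 316 CPM with TGFβ against 55.6 to 111 CPM in CTRL, with *Tubb3* higher and *S100b* lower. Their part in the results was not tested, and in bulk libraries fewer cells of a type and less RNA per cell cannot be told apart.

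With iCre set against LacZ within each treatment, most of the calls among axon guidance genes in fits without the replicate block came with IL-1β and TNFα. Differences between treatments were tested only against CTRL, as interactions. With IL-1β, 10 members were higher in iCre and 4 lower, or 21.5% against 16.1% of all genes (7.14% higher, 8.98% lower). With TNFα, 12 were higher and 11 lower, or 35.4% against 27.3% (14.8% higher, 12.6% lower). Where expression averaged 1 CPM or more, the order of members and genes turned: 26% of members against 28.2% of genes passed with IL-1β, and 42% against 46.6% with TNFα. With the replicate block the order at that level did not turn: 70% against 52% passed with IL-1β, and 62% against 56.5% with TNFα. With TGFβ 1 was higher and 2 lower, or 4.62% against 8.37% (2.51% higher, 5.87% lower). In CTRL only *Sema4b* passed, or 1.54% against 0.0754% (0.0278% higher, 0.0476% lower). With bFGF 0 members passed by edgeR's quasi-likelihood test, as did 0% of all genes, while 12 members had an unadjusted p under 0.05 and DESeq2 called 4. The members' median log2 fold changes were 0.14 (CTRL), 0.27 (bFGF), 0.14 (TGFβ), 0.36 (IL-1β) and 0.14 (TNFα), and those of all genes -0.03, 0.00, 0.00, 0.04 and 0.00.

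With the replicate block 18 members passed in CTRL, 14 of them higher (14.5% of all genes, 6.79% higher), and 24 with bFGF, 20 higher (13.9%, 6.64% higher). With TGFβ 29 passed, 16 higher (20.8%, 9.67% higher), and with IL-1β 37, 29 higher (29.5%, 14.6% higher). With TNFα 32 passed, 18 higher, as did 8121 of all 25210 genes, 4321 of them higher. Omitting a replicate number left 0 to 6 members in CTRL (0% to 2.78% of all genes), 0 to 7 with bFGF (0% to 1%), 0 to 13 with TGFβ (2.01% to 12.5%) and 3 to 21 with IL-1β (6.18% to 16.6%), the most in each case without replicate 2. With TNFα it left 8 members without replicate 3 (13% of all genes) and 24 without replicate 1 (27.1%).

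GC content moved with iCre in the same libraries. Relative to each gene's mean, log2 CPM changed by 0.19 to 0.32 per 10 percentage points of GC content in iCre cells given TNFα, IL-1β or TGFβ (12 libraries), and by -0.23 to 0.00 in the other 28. Members had a median GC content of 56.1%, against 49.9% for protein-coding genes. A value corrected for GC is given beside each iCre result below whose call a GC correction ended, and beside some of the others. Of the members with at least 1 CPM, 26 of the 28 with at least 55% GC had a log2 fold change above 0 with TGFβ, against 6 of the other 22. After GC correction with the replicate block these counts were 21 and 8, and 18 members passed with TGFβ (7 higher), 29 with IL-1β (20 higher) and 28 with TNFα (14 higher), beside 9.61%, 22.4% and 28.5% of all genes (3.78%, 10.8% and 15.9% higher). The GC correction without the block left 1 member with TGFβ, which was higher, 7 with IL-1β (2 higher, 5 lower) and 21 with TNFα (10 higher, 11 lower), beside 0.889%, 9.22% and 22.8% of all genes. The larger share of higher members with IL-1β turned under it.

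**Figure D4:**
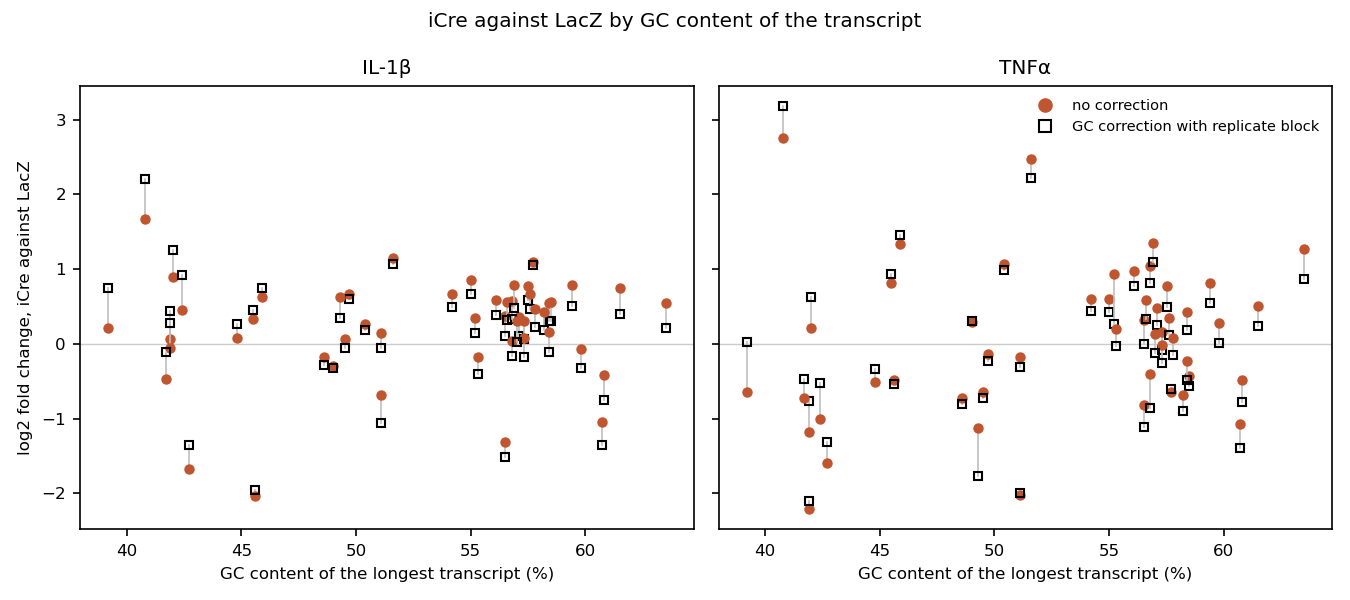
Log2 fold change of each member with at least 1 CPM, iCre against LacZ, by the GC content of its longest transcript, with IL-1β and with TNFα. Dots are uncorrected values and squares values after GC correction with the replicate block. With TNFα the median of the 28 members of at least 55% GC goes from 0.30 to 0.00 and that of the other 22 from -0.50 to -0.32.

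*Sema3c* was lower and *Sema3a* higher in iCre cells with either cytokine. With IL-1β, *Sema3c* held 140, 109, 124 and 102 CPM in iCre against 272 to 467 CPM in LacZ (-1.68 ± 0.18, adjusted p = 0.000236), and with TNFα 78.2, 86.6, 54.0 and 48.1 CPM against 189 to 219 CPM (-1.60 ± 0.18, adjusted p = 0.000326). Neither pair of groups overlapped. *Sema3a* held 45.2, 149, 113 and 92.3 CPM with TNFα in iCre, all above the LacZ range of 11.4 to 22.3 CPM (2.76 ± 0.35, adjusted p = 0.000507; 3.18 after GC correction with the block). With IL-1β it held 18.4, 46.8, 30.8 and 31.8 CPM against 8.01, 19.2, 7.01 and 5.53 CPM, overlapping through the replicate 2 library of LacZ. That change was 1.67 ± 0.39 (adjusted p = 0.0147); without replicate 2 it was 1.99 (adjusted p = 1.65e-04), and without replicate 3 or 4 the adjusted p was 0.104 and 0.0758, and in a single fit over all libraries 0.0939. In CTRL *Sema3a* held 26.1, 73.7, 44.5 and 34.8 CPM against 11.2, 42.2, 12.2 and 10.1 CPM, each iCre library above the LacZ library of its number (1.24, adjusted p = 0.294, or 1.39 and 2.57e-06 with the block). Without replicate 2 it was 1.65 (adjusted p = 0.00286). With bFGF the values were 0.78 (adjusted p = 0.506), 1.24 (adjusted p = 0.0268) without replicate 2 and 0.92 (adjusted p = 0.000161) with the block, and with TGFβ -0.17 (adjusted p = 0.993), which turned to 0.42 (adjusted p = 0.0145) after GC correction with the block.

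Other semaphorins passed too. *Sema4b* was higher in iCre in CTRL, at 32.6, 37.7, 36.3 and 36.3 CPM against 20.1, 24.6, 22.4 and 23.9 CPM (0.64 ± 0.08, adjusted p = 0.037, or 0.051 to 0.534 without replicate 1, 3 or 4), with no overlap. *Sema4a*, which IL-1β raised in LacZ cells, held 0.927 to 1.18 CPM with IL-1β in iCre against 1.57 to 3.44 CPM (-1.32 ± 0.27, adjusted p = 0.00845, or 0.0529 to 0.0694 without replicate 1, 3 or 4). With TGFβ, *Sema3f* was higher at 45.2 to 68.2 against 28.3 to 37.1 CPM (0.73 ± 0.14, adjusted p = 0.0104) and *Sema3d* lower at 20.8 to 43.4 against 56.1 to 81.8 CPM (-1.30 ± 0.21, adjusted p = 0.00437). Corrected for GC with the block these were 0.42 and -0.73, and with the GC correction alone neither passed (adjusted p = 0.193 and 0.173). Without replicate 3 they were at adjusted p = 0.0647 and 0.0677, and *Sema3f* without replicate 1 at 0.0737. With TNFα, *Sema5a* held 95.5, 205, 149 and 108 CPM in iCre and 49.1, 87.1, 49.8 and 38.2 CPM in LacZ (1.33 ± 0.29, adjusted p = 0.00743), and *Sema6b* was 1.27 ± 0.31 higher (adjusted p = 0.0124). Without replicate 3 these calls were lost (adjusted p = 0.0679 and 0.0953), and that of *Sema6b* also without replicate 4 (adjusted p = 0.0733).

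Both neuropilins were lower in iCre with TNFα. *Nrp1* held 99.9, 74.9, 72.8 and 67.1 CPM against 201, 231, 156 and 135 CPM, with no overlap (-1.18 ± 0.19, adjusted p = 0.0015; -0.77, adjusted p = 0.0013, after GC correction with the block). *Nrp2* held 100, 112, 58.4 and 62.6 CPM against 275, 685, 200 and 220 CPM (-2.03 ± 0.41, adjusted p = 0.00472; -1.65, adjusted p = 5.74e-04, without replicate 2; adjusted p = 0.102 in a single fit over all libraries). In CTRL and with bFGF *Nrp1* differed by -0.03 (adjusted p = 0.956) and 0.02 (adjusted p = 0.984). With TGFβ it was 0.38 (adjusted p = 0.0827, or 0.00249 with the block) and with IL-1β 0.07 (adjusted p = 0.857, or 0.44 and 0.000214 after GC correction with the block).

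Plexins went the other way where they passed, apart from *Plxnd1*. *Plxna4* held 6.76, 24.0, 12.9 and 24.4 CPM with TNFα in iCre against 2.71 to 3.56 CPM (2.47 ± 0.37, adjusted p = 0.00108) and 6.29 to 11.9 CPM with IL-1β against 1.87 to 6.39 CPM (1.15 ± 0.34, adjusted p = 0.0426). The IL-1β groups overlapped at replicate 1 of LacZ, and that call was lost with the GC correction without the block (adjusted p = 0.0991) and without replicate 3 and 4 (adjusted p = 0.196 and 0.0934). *Plxna3* held 53.0 to 66.1 CPM with IL-1β in iCre against 25.4 to 40.4 CPM (0.86 ± 0.13, adjusted p = 0.00182). *Plxna1* did not pass in any treatment: it was 0.16 (adjusted p = 0.38) in CTRL, 0.11 (adjusted p = 0.793) with bFGF, 0.44 (adjusted p = 0.0506) with TGFβ, 0.31 (adjusted p = 0.097) with IL-1β and 0.16 (adjusted p = 0.327) with TNFα. With the block the TGFβ and IL-1β values passed (adjusted p = 0.00158 and 0.00869), and after GC correction with the block they were 0.16 and 0.06.

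*Epha4* had the lowest ratio of iCre to LacZ among the members called with IL-1β: 11.1, 8.22, 9.01 and 5.78 CPM against 28.6 to 38.6 CPM (-2.04 ± 0.19, adjusted p = 0.000126). With TNFα, *Epha2* held 54.0, 53.8, 90.6 and 93.1 CPM against 22.3 to 33.4 CPM (1.35 ± 0.21, adjusted p = 0.00144), and *Epha3* 2.59, 0.904, 0.662 and 0.389 CPM against 4.13 to 6.08 CPM (-2.21 ± 0.50, adjusted p = 0.00903). The *Epha3* difference was -2.98 without replicate 1 and missed the threshold without replicate 3 (-2.01, adjusted p = 0.0712). *Efnb2* held 112, 178, 147 and 171 CPM against 62.4 to 86.9 CPM (1.07 ± 0.15, adjusted p = 0.00091). *Efnb1* held 37.0, 24.1, 32.6 and 24.9 CPM against 41.1, 74.0, 41.9 and 37.7 CPM, with no overlap. Its difference of -0.69 ± 0.23 (adjusted p = 0.0483) became -0.35 (adjusted p = 0.11) without replicate 2, and the adjusted p was 0.111 and 0.107 without replicate 3 and 4. *Efna4* was higher in iCre with TNFα at 14.4 to 18.5 against 7.54 to 9.40 CPM (1.04 ± 0.12, adjusted p = 0.000373) and with IL-1β by 0.57 ± 0.14 (adjusted p = 0.0203). The IL-1β call was lost with the GC correction alone (0.33, adjusted p = 0.184) and without replicate 1, 3 or 4 (adjusted p = 0.0563 to 0.17). *Ephb6* was lower with TGFβ, at 13.8 to 27.8 against 25.5 to 45.8 CPM (-0.91 ± 0.23, adjusted p = 0.0393; adjusted p = 0.0503 with the GC correction alone, and 0.0779 to 0.238 without replicate 1, 3 or 4). It was higher with IL-1β (0.79 ± 0.23, adjusted p = 0.0376), a call lost with the GC correction alone (0.51, adjusted p = 0.2) and without replicate 1 and 3 (adjusted p = 0.117 and 0.209). *Efna1* was higher with IL-1β by 0.67 ± 0.19 (adjusted p = 0.0389, or 0.0512 after GC correction with the block, 0.185 with the GC correction alone and 0.0845 to 0.215 without replicate 2, 3 or 4).

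Among Slit, Robo and netrin genes with TNFα, *Slit2* held 421 to 659 CPM in iCre against 279 to 357 CPM (0.81 ± 0.16, adjusted p = 0.00382, or 0.0515 without replicate 3). *Robo1* was lower, at 61.4 to 123 against 130 to 154 CPM (-0.64 ± 0.18, adjusted p = 0.0252, or 0.147 and 0.0747 without replicate 3 and 4). *Ntng2* was lower with both cytokines, by -1.05 ± 0.21 with IL-1β (adjusted p = 0.00739) and -1.07 ± 0.26 with TNFα (adjusted p = 0.0119), calls lost without replicate 3 (adjusted p = 0.0601 and 0.0882) and, with TNFα, without replicate 4 (adjusted p = 0.0735). Of its exon bases 14% overlap another gene on the same strand.

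Of the members named by rule, 3 of 10 with IL-1β (*Plxna3*, *Epha4* and *Sema3c*) and 7 of 12 with TNFα (*Sema3a*, *Plxna4*, *Epha2*, *Efnb2*, *Nrp2*, *Sema3c* and *Nrp1*) kept their calls with each replicate number left out, and neither *Sema4b* in CTRL nor any of the 3 with TGFβ did. With TNFα, 5 of 8 fibroblast markers were lower in iCre and 1 was higher (10070 to 18507 against 23347 to 30703 CPM summed), and 3 of 6 pericyte markers were higher and 1 lower (354 to 1237 against 143 to 501 CPM). With IL-1β, 3 of 8 fibroblast markers (*Col1a1*, *Col3a1* and *Dcn*) were lower in iCre and 0 higher (20425 to 31876 against 34731 to 66861 CPM summed, with no overlap), and 2 of 6 pericyte markers (*Cspg4* and *Kcnj8*) were higher and 0 lower. In either direction, 1 cardiomyocyte, 1 endothelial and 1 neural marker also passed with IL-1β, and 1 leukocyte and 1 neural marker with TNFα. With TGFβ 1 fibroblast, 1 endothelial and 1 pericyte marker passed. Their part in these results was not tested.

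The interaction asked whether a ligand's effect differed between iCre and LacZ cells, over 16 libraries a ligand. With TNFα 3 members had a higher and 6 a lower response in iCre, or 13.8% against 16.1% of all genes (8.38% higher, 7.7% lower). With IL-1β the counts were 0 and 3, or 4.62% against 7.71% (2.76% and 4.95%), and with TGFβ 0 and 2, or 3.08% against 4.51% (0.893% and 3.62%). With bFGF 0 members passed by edgeR's test, as did 0% of all genes. Where expression averaged 1 CPM or more the shares were 18% of members against 29% of genes with TNFα, 6% against 14.2% with IL-1β and 4% against 8.53% with TGFβ. At an unadjusted p under 0.05 1 member had a higher response for bFGF, 2 for TGFβ and 7 for IL-1β, and DESeq2 called 0 higher with each. With the block 21 members passed with TNFα (25.1% of all genes), 14 with IL-1β (16.9%), 8 with TGFβ (8.04%) and 0 with bFGF (0%). Of these members, 11 were higher and 10 lower with TNFα, 9 and 5 with IL-1β, and 2 and 6 with TGFβ. Of all genes, 3334 were higher and 2999 lower with TNFα, 1992 and 2263 with IL-1β, and 596 and 1431 with TGFβ. The comparisons share the CTRL libraries. Markers had interactions too. With TNFα, 2 of 6 pericyte markers and 1 of 8 fibroblast markers responded higher in iCre and 1 of 6 neural markers lower. With IL-1β, 1 of 6 pericyte and 1 of 2 cardiomyocyte markers responded higher and 1 of 6 neural markers lower. Their part in these results was not tested.

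**Figure D5:**
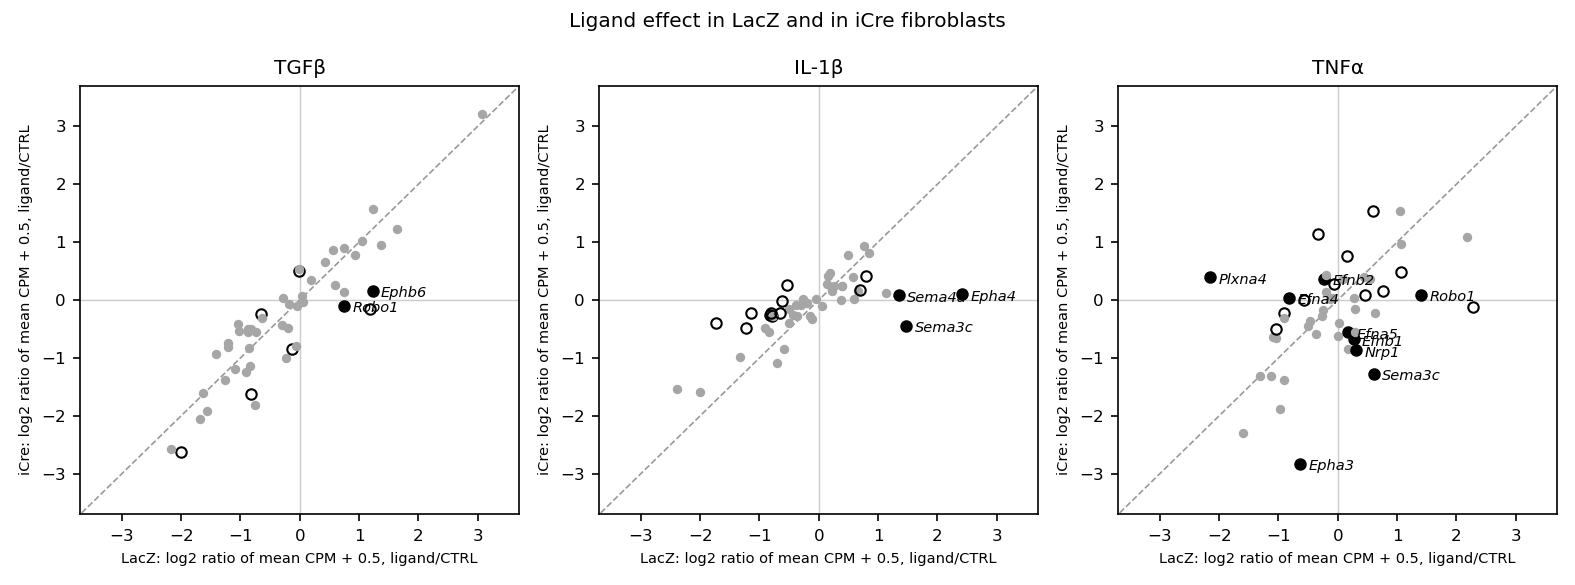
Response of each member to TGFβ, IL-1β and TNFα in LacZ (x) and iCre (y) fibroblasts, as the log2 ratio of mean CPM + 0.5 between ligand and CTRL; the diagonal marks equal responses, filled black points passed the interaction test, open points only with the replicate block. *Epha4* and *Sema3c* with IL-1β and *Nrp1*, *Robo1*, *Epha3* and *Sema3c* with TNFα lie below the diagonal, and *Plxna4* with TNFα lies above it.

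*Sema3c* responded less to both cytokines in iCre cells, by -1.94 ± 0.23 with IL-1β (adjusted p = 9.24e-05) and -1.87 ± 0.24 with TNFα (adjusted p = 9.86e-05). Its iCre CTRL libraries held 204, 136, 178 and 131 CPM, so its iCre TNFα libraries, at 48.1 to 86.6 CPM, lay below CTRL where those of LacZ lay above. In a single fit over all 40 libraries these calls were lost (adjusted p = 0.0883 and 0.0585). *Epha4* held 5.14 to 10.4 CPM in iCre CTRL and 5.78 to 11.1 CPM with IL-1β, overlapping groups, and its interaction was -2.42 ± 0.34 (adjusted p = 0.000356). *Sema4a* also responded less to IL-1β (-1.75 ± 0.47, adjusted p = 0.0296, or 0.0585 to 0.298 without replicate 1, 3 or 4).

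With TNFα, *Nrp1* (-1.16 ± 0.23, adjusted p = 0.00283), *Robo1* (-1.30 ± 0.28, adjusted p = 0.00416) and *Epha3* (-2.59 ± 0.56, adjusted p = 0.00478) responded lower in iCre cells. For *Epha3* this was -3.20 without replicate 1 and missed the threshold without replicate 3 (adjusted p = 0.0846). *Nrp1* held 118 to 164 CPM in iCre CTRL, above all of its iCre TNFα libraries, and *Robo1* held 65.7 to 125 CPM there, overlapping them. *Plxna4* responded higher (2.75 ± 0.57, adjusted p = 0.00329, or 0.0513 and 0.0517 without replicate 3 and 4): its TNFα libraries lay below CTRL in LacZ cells, while in iCre cells those at 6.76 to 24.4 CPM overlapped CTRL at 6.46 to 18.1 CPM. *Efna4* responded higher too (0.92 ± 0.15, adjusted p = 0.000694), with iCre CTRL at 14.5 to 18.6 CPM, overlapping iCre TNFα. *Efnb2* (0.62 ± 0.20, adjusted p = 0.0443), *Efnb1* (-0.95 ± 0.30, adjusted p = 0.0433) and *Efna5* (-0.72 ± 0.23, adjusted p = 0.0445) passed narrowly. After GC correction with the block *Efnb2* was at adjusted p = 0.0767 and *Efna5* at 0.0548, and without replicate 2 *Efnb2* was 0.33 (adjusted p = 0.361). None of these 3 passed without replicate 3 or 4 (adjusted p = 0.127 to 0.237), nor *Efna5* without replicate 1 (adjusted p = 0.0993). With the GC correction alone *Efnb2* was at 0.103 and *Efna5* at 0.143, and with RLE scaling *Efnb2* was at 0.0647. *Sema3a* passed for TNFα only with the block (1.34, adjusted p = 0.00343, against 1.51 and 0.138), and *Nrp2* likewise (-1.82, adjusted p = 0.0312, against -2.41 and 0.251).

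With TGFβ, *Ephb6* (-1.11 ± 0.30, adjusted p = 0.0463) and *Robo1* (-0.88 ± 0.24, adjusted p = 0.0498) responded lower in iCre cells. Neither call held with the GC correction alone (adjusted p = 0.061 and 0.118), *Robo1* missed the threshold with RLE scaling (adjusted p = 0.0525) and in a single fit over all libraries (adjusted p = 0.179), and omitting replicate 1, 3 or 4 left 0 of the members called there. *Sema3a* passed with the block (-1.62, adjusted p = 0.042, against -1.42 and 0.66). Over leave-out fits, 2 to 4 members passed with IL-1β (2.37% to 6.85% of all genes) and 4 to 11 with TNFα (5.39% to 15.4%), and of those named by rule *Epha4* and *Sema3c* with IL-1β and *Efna4*, *Sema3c*, *Robo1* and *Nrp1* with TNFα kept their calls in every one.

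Genes that carry the signal onward gave a mixed picture. Of 12 netrin receptors and related guidance genes, TGFβ raised 4 (*Flrt2*, *Neo1*, *Unc5b* and *Unc5d*) and lowered 5 (*Draxin*, *Rgma*, *Rgmb*, *Unc5a* and *Unc5c*). bFGF raised 3 and lowered 2, IL-1β raised 3 and lowered 0 (2 at an unadjusted p under 0.05, and 1 by DESeq2), and TNFα raised 3 and lowered 1. The shares of all genes called were 36.9% (TGFβ), 20.7% (IL-1β), 21.3% (TNFα) and 11.6% (bFGF). *Neo1*, the netrin and RGM receptor neogenin, held 131 to 172 CPM in LacZ CTRL, 317 to 344 CPM with TGFβ, 192 to 246 CPM with IL-1β and 188 to 210 CPM with TNFα. *Dcc*, the founding netrin receptor, was at 0 to 0.09 CPM in every library. In iCre against LacZ the list gave 0 calls by edgeR's test in CTRL and with bFGF (4 and 2 at an unadjusted p under 0.05, and 1 each by DESeq2), 1 higher and 1 lower with TGFβ, 1 higher with IL-1β, and 2 higher and 2 lower with TNFα, where 8.37%, 16.1% and 27.3% of all genes passed.

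Of 29 downstream effectors, including collapsin response mediators, Mical oxidases and srGAPs, TGFβ raised 12 and lowered 7, bFGF 3 and 2, and IL-1β and TNFα each 4 and 6, beside 36.9%, 11.6%, 20.7% and 21.3% of all genes called. *Rnd1*, a small GTPase that binds plexins, held 3.36 to 8.83 CPM in LacZ CTRL, 65.0 to 111 CPM with IL-1β and 78.6 to 86.6 CPM with TNFα. In iCre it held 22.0 to 31.4 CPM with IL-1β and 4.73 to 11.9 CPM with TNFα, below the LacZ libraries in both. In iCre against LacZ, TNFα gave 8 effectors higher and 5 lower, IL-1β 4 and 3, and TGFβ 1 and 2, beside 27.3%, 16.1% and 8.37% of all genes. In CTRL and with bFGF the count was 0 by edgeR's test, with 7 and 6 at an unadjusted p under 0.05 and 3 and 0 by DESeq2. *Rnd1*, *Rnd3* and the adaptor *Nck1* were lower with both cytokines and had lower TNFα interactions.

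The promoter windows were searched on both strands for 6 motifs. RefSeq gave 73 windows for 57 of the 65 members, set against 32851 windows in all. The GC box GGGCGG was in 69.9% of member windows and 35.7% of all, and CAGACA, the SMAD box, in 30.1% and 21%. The TEAD motif GGAATG was in 13.7% and 14.7%, the AP-1 motif TGANTCA in 4.11% and 7.81%, the κB motif in 1.37% and 1.63%, and the palindrome GTCTAGAC in 0% and 0.213%. CAGACA lay in the windows of 3 of the 9 members with a window that TGFβ raised (*Slit2*, *Ntn4* and *Robo1*, printed above), 7 of 17 that it lowered and 10 of 31 not called. GGAATG lay in 3 of 6 raised by bFGF (*Efnb2*, *Epha2* and *Robo2*), 2 of 7 lowered by it (*Epha3* and *Plxnd1*) and 5 of 44 not called, and the *Epha2* window held it 2 times. A match is a description of letters and not a binding site.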

How the data were processed

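RNA from 40 cardiac fibroblast cultures was sequenced. The authors aligned reads to mm10 with STAR, and the submitters' processing notes list FastQC 0.10.1 and HTSeq 0.10.0. The deposited values are raw gene counts, with no normalization; the strand setting and annotation release of the counting are not given in the sources used here. Of 55414 gene IDs, 52133 matched GENCODE M21 (GRCm38), which held 99.59% of the counts and gave symbols, coordinates, exon lengths and GC content.

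Genes with at least 10 counts over the libraries were tested with edgeR 4.0.16 (R 4.3.3) by its quasi-likelihood test with TMM scaling, in fits over the compared groups alone, with Benjamini-Hochberg adjustment and a threshold of 0.05. CPM values are TMM-scaled; fold changes are on the log2 scale with standard errors. The steps were tested on simulated data. Alternatives were DESeq2 1.42.0, RLE scaling, other filters, a replicate block, a smooth GC correction, all libraries in a single fit, and leaving out each replicate number.

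Same-numbered libraries deviated together. Over 13090 genes the correlation of their deviations from the group means averaged 0.553, with a minimum of 0.332, against -0.155 for different numbers. The replicate block therefore takes the numbers as pairing the samples. The main fits had no block, since the study's methods name none, so p-values are unpaired unless the block is named. The numbers' origin is not stated in the labels.

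For each comparison the rule named up to 6 members in each direction with the largest changes among called members averaging 1 CPM or more, and *Sema3a*, *Plxna1* and *Nrp1* throughout. Other genes given with values, such as *Plxnd1*, *Nrp2*, *Ntn1*, *Neo1* and *Rnd1*, were chosen after their values were seen. The members and the pathway, marker and motif lists were chosen with earlier results of these data known.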

Additional observations from a re-analysis of the deposited data

Results flagged for a closer look

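In a check of each of 380 groups of 4 libraries (38 named members, 10 groups), 1 library lay far from the other 3, relative to the group's range, in 56 groups; chance gives about 1 in 20, or 19. Of these, 48 were replicate 2 libraries, 5 replicate 1, 3 replicate 4 and 0 replicate 3.

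*Nrp2* was set apart in replicate 2 in 9 groups. With LacZ its replicate 2 level was 206 CPM in CTRL, 148 CPM with bFGF, 63.3 CPM with TGFβ, 685 CPM with TNFα and 325 CPM with IL-1β. With iCre it was 302 CPM in CTRL, 248 CPM with bFGF, 87.7 CPM with TGFβ and 256 CPM with IL-1β. *Sema3a* was set apart in replicate 2 at 42.2 CPM (LacZ CTRL), 140 CPM (LacZ bFGF), 134 CPM (LacZ TGFβ), 22.3 CPM (LacZ TNFα) and 117 CPM (iCre TGFβ). *Sema3c* was set apart in replicate 2 with TGFβ, at 111 CPM with LacZ and 130 CPM with iCre, and in replicate 1 of LacZ CTRL at 145 CPM.

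Among ephrins, *Efnb3* stood high in replicate 2 at 7.77 CPM (LacZ CTRL), 4.33 CPM (LacZ bFGF), 2.71 CPM (LacZ IL-1β), 11.6 CPM (iCre CTRL), 14.5 CPM (iCre bFGF) and 5.27 CPM (iCre IL-1β). *Efnb1* was set apart at 43.7 CPM (LacZ IL-1β, replicate 2), 74.0 CPM (LacZ TNFα, replicate 2) and 66.7 CPM (iCre TGFβ, replicate 4), and *Efna1* at 4.30 CPM (LacZ IL-1β, replicate 1).

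Among Eph receptors, *Ephb2* stood apart in replicate 2 at 102 CPM (LacZ CTRL) and, with iCre, at 114 CPM (bFGF), 219.7 CPM (TGFβ) and 97.0 CPM (TNFα). *Epha1* did so at 5.49 CPM (LacZ bFGF) and, with iCre, at 6.35 CPM (bFGF), 2.65 CPM (IL-1β) and 5.80 CPM (TNFα). *Epha7* was set apart at 37.4 CPM (LacZ CTRL, replicate 2), 52.9 CPM (iCre bFGF, replicate 1) and 37.8 CPM (iCre TNFα, replicate 1). *Ephb6* was set apart in replicate 2 at 25.5 CPM (LacZ TGFβ) and 21.0 CPM (iCre bFGF).

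Among the remaining genes, replicate 2 was set apart for *Sema4g* at 9.20 CPM (LacZ IL-1β), 7.51 CPM (LacZ TNFα) and 18.2 CPM (iCre bFGF). For *Sema6c* it was at 6.52 CPM (LacZ TGFβ), 12.5 CPM (LacZ IL-1β), 27.0 CPM (iCre bFGF) and 11.2 CPM (iCre TGFβ). Single replicate 2 libraries were *Sema5a* at 55.1 CPM (iCre TGFβ), *Ntn4* at 15.7 CPM (LacZ bFGF), *Plxna3* at 38.5 CPM (LacZ TNFα) and *Robo2* at 24.0 CPM (LacZ TNFα). *Robo1* was at 196 CPM (iCre bFGF) and 135 CPM (iCre IL-1β). Outside replicate 2 were *Nrp1* at 133 CPM (LacZ bFGF, replicate 1), *Plxnd1* at 37.1 CPM and *Sema4b* at 30.0 CPM (both LacZ bFGF, replicate 4).

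The response to a ligand differed between iCre and LacZ cells, by the interaction test, in 14 cases. The log2 differences were -1.11 for *Ephb6* and -0.88 for *Robo1* with TGFβ, and -2.42 for *Epha4*, -1.94 for *Sema3c* and -1.75 for *Sema4a* with IL-1β. With TNFα they were 2.75 for *Plxna4*, 0.92 for *Efna4*, 0.62 for *Efnb2*, -2.59 for *Epha3*, -1.87 for *Sema3c*, -1.30 for *Robo1*, -1.16 for *Nrp1*, -0.95 for *Efnb1* and -0.72 for *Efna5*.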

How the results depend on the processing

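The replicate block, which rests on the pairing of the numbers, raised the counts of members called to 37 (bFGF), 43 (IL-1β) and 39 (TNFα) against CTRL in LacZ, and to 18 (CTRL), 24 (bFGF), 29 (TGFβ) and 37 (IL-1β) for iCre against LacZ. The interactions rose to 8 (TGFβ), 14 (IL-1β) and 21 (TNFα). With the GC correction added to the block the same counts were 37, 43 and 38, then 18, 24, 18 and 29, then 7, 11 and 19. The GC correction alone left 1 member (iCre, TGFβ), 7 (iCre, IL-1β) and 0 (TGFβ interaction). DESeq2 called 7, 4 and 10 members for iCre in CTRL, bFGF and TGFβ and 15 for the TNFα interaction; edgeR's expression filter gave 5 for iCre with TGFβ, and RLE scaling 1 for the TGFβ interaction. A single fit over all libraries gave 2, 3 and 8 for iCre in CTRL, bFGF and TGFβ and 1 for the TGFβ interaction. Leaving out a replicate number gave 2 to 28 (bFGF), 22 to 37 (TGFβ), 11 to 33 (IL-1β) and 14 to 28 (TNFα) against CTRL. For iCre it gave 0 to 6 (CTRL), 0 to 7 (bFGF), 0 to 13 (TGFβ), 3 to 21 (IL-1β) and 8 to 24 (TNFα), and for the interactions 0 to 0 (bFGF), 0 to 6 (TGFβ), 2 to 4 (IL-1β) and 4 to 11 (TNFα). The cause of these shifts was not tested. Of the values of 150 pairs of gene and comparison, 1574 kept direction and call, 51 gained the call, 162 lost it and 13 turned in sign. Those were *Sema3a* with TNFα in LacZ (0.16 without replicate 2, within a range of -0.44 to 0.16 over the omissions) and in iCre with TGFβ (0.30 with the GC correction, 0.42 with the block too); *Nrp1* in iCre CTRL (0.02 with either GC correction, 0.01 and 0.02 without replicate 1 and 4) and iCre bFGF (-0.06 without replicate 2, within a range of -0.06 to 0.08); and *Plxna1* in iCre with TNFα (-0.08 with either GC correction), in the IL-1β interaction (-0.07 and -0.08 likewise) and in the TNFα interaction (0.02 without replicate 4). The 15 members under 1 CPM are limited by counting.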
